A study of Homo sapiens with 8 samples.

Results

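The genes described here are 49 interferon-stimulated antiviral effector genes, which were selected by symbol from a table of 25369 named genes. They comprise the OAS, IFIT, IFITM, GBP and APOL subfamilies and further genes grouped by role, and all 49 were present in the table. Poly(A) RNA was sequenced from UWB1.289, a human ovarian cancer cell line that carries a BRCA1 mutation (BRCA1-null), and from the same line transduced with the BRCA1 gene (BRCA1+). Both lines were cultured for 24 h with 0.5 uM entinostat, which inhibits class I histone deacetylases, or with DMSO alone (control). The 4 groups, BRCA1+ control, BRCA1+ entinostat, BRCA1-null control and BRCA1-null entinostat, held 2 libraries each, and no group received interferon. BRCA1 status was compared in 1 pair of lines, so the restored gene and any other difference between the lines cannot be told apart. Whether the 2 libraries of a group came from separate cultures was not stated, and p-values then measure the spread between these libraries, which may be technical.

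Interferons are secreted proteins that bind receptors on the cell surface and signal through kinases of the JAK family. Signalling by type I and type III interferons leads to binding at the interferon-stimulated response element (ISRE) in gene promoters, with IRF9 as a DNA-binding subunit. IFN-gamma, the type II interferon, acts mainly through another promoter element, the gamma-activated site (GAS). The effector genes induced in this way act at successive stages of infection. IFITM proteins hinder viral entry at membranes, OAS enzymes and PKR (EIF2AK2) sense double-stranded RNA, IFIT proteins bind viral RNA, and the dynamin-like MX proteins and guanylate-binding proteins (GBP) act on viral or microbial structures inside the cell.

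Promoter sequence near transcription starts was examined first, because the ISRE is the element that these genes are known to share. A RefSeq promoter table (GRCh38.p14, from 250 bases before to 50 bases after each start) held 38 of the 49 genes. The table had no entry for IFIT2, TRIM22, USP18, OASL, MX2, APOL2, IFITM2, APOL6, GBP2, APOL1 and OAS2. The ISRE was searched as GAAA, any 2 bases and again GAAA, with its reverse complement (TTTC, any 2 bases and TTTC), and the GAS as TTCNNNGAA, which reads the same on both strands, and matches of the ISRE and GAS may overlap. An ISRE match lay in the promoter of 29 of the 38 genes (76.3%), against 4.38% of all 27305 genes in that table. A GAS match lay in 11 of the 38 (28.9%), against 9.38% of all genes. The windows below place 1 ISRE match, in capitals, in each of 8 genes that stand for the 3 outcomes of the comparison between the lines. Every one of these genes but IFI44 had at least 1 other ISRE match. In BST2 and ISG15 another match overlaps the capitals and runs into the small letters. OAS3, IFI44, IFI27, IFI6 and DDX60 were called higher in BRCA1-null than in BRCA1+ cells in DMSO, BST2 was called lower, and IFIT1 and ISG15 were not called. Each window is written 5′ to 3′ on the strand of its gene and lies outside the span listed for that gene. It matched hg19 (GRCh37) at 1 place within that span and its near flanks, and the rest of the genome was not searched. The positions on hg19 are chr12:113376126-113376155 (OAS3, + strand), chr1:79115446-79115473 (IFI44, + strand), chr14:94576964-94576993 (IFI27, + strand), chr1:27998840-27998869 (IFI6, - strand), chr4:169239972-169240001 (DDX60, - strand), chr19:17516550-17516579 (BST2, - strand), chr10:91152267-91152296 (IFIT1, + strand) and chr1:948760-948789 (ISG15, + strand).
OAS3: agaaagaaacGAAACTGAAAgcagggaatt
IFI44: gcacactgagTTTCAGTTTCctttctct
IFI27: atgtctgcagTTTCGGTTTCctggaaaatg
IFI6: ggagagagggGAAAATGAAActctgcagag
DDX60: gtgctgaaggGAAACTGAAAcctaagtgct
BST2: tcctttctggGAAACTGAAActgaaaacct
IFIT1: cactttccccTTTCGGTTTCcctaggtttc
ISG15: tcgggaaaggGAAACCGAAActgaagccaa
OAS3, DDX60 and BST2 carry the same printed match on the same strand, and IFI27 shares its printed match with IFIT1. Among genes with a promoter in the table, an ISRE match was present in 15 of 20 that were higher in BRCA1-null control cells (75%). It was present in 3 of 3 that were lower and in 10 of 14 that were not called (71.4%). These matches describe letters in a window and do not show binding.

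Total counts per library ranged from 31900158 to 53549893, and a count of 3, the upper limit that a count of 0 allows, equalled 0.0552 to 0.0946 counts per 1000000 (CPM). Levels below are CPM scaled by TMM factors, and intervals and floors cover counting error only, because reads without molecular identifiers are not independent molecules. BRCA1, the gene that tests the labels, lay at 92.4 to 133 CPM in the 4 BRCA1+ libraries and at 17.6 to 22.4 CPM in the 4 BRCA1-null libraries. The epithelial markers KRT8, PAX8 and EPCAM were abundant in every library (KRT8 at 4572 CPM or more), while WT1 had 1 to 20 counts. Of 8 epithelial markers, 1 was called higher and 3 were called lower in BRCA1-null control cells (50% called, against 42.2% of all tested genes). Their lowest log2 fold change was -2.87. Of the other cell types that could be present, the leukocyte genes CD3E and NKG7 had at most 4 counts and the fibroblast genes DCN and LUM had 0 in every library. Other markers of these types were higher. Over 1 CPM in each library were 3 to 5 of 8 leukocyte, 2 of 6 fibroblast and 3 to 4 of 4 endothelial markers. The summed level of 8 leukocyte markers, most of it CD68, was 16.7 to 25.3 CPM in BRCA1+ and 27.1 to 39.3 CPM in BRCA1-null libraries. That of 6 fibroblast markers, all but a little of it from COL1A1 and COL1A2, was 13 to 33.7 CPM and 29.8 to 59.4 CPM. That of 4 endothelial markers was 9.48 to 38.3 CPM and 36.6 to 92.9 CPM. These marker sums moved with the lines, and their part in the results was not tested.

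Libraries numbered 1 stood apart from libraries numbered 2 in the interferon-stimulated genes, and this touches most results below. Of the 46 genes that passed the filter on low counts, replicate 1 lay above replicate 2 for 34 in BRCA1+ control, 32 in BRCA1+ entinostat, 42 in BRCA1-null control and 46 in BRCA1-null entinostat cells. In BRCA1-null control cells 24 of the 46 genes (52.2%) were over 1.5 times higher in replicate 1, and 0 were over 1.5 times higher in replicate 2 (against 5.87% of all genes). The share of all 17714 tested genes over 1.5 times higher in replicate 1 of that group was 5.98%. The corresponding counts were 14 (30.4%, against 7.71% of all genes) in BRCA1-null entinostat, 8 (17.4%, against 5.98%) in BRCA1+ control and 4 (8.7%, against 4.96%) in BRCA1+ entinostat cells. In the other direction the counts were 0 in BRCA1-null entinostat (against 3.13% of all genes), 1 in BRCA1+ control (against 5.35%) and 0 in BRCA1+ entinostat cells (against 4.92%). The median log2 ratio of replicate 1 to replicate 2 was 0.62 in BRCA1-null control, 0.40 in BRCA1-null entinostat, 0.21 in BRCA1+ control and 0.17 in BRCA1+ entinostat cells, while the median over all genes was between -0.01 and 0.01 in every group.

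**Figure D1:**
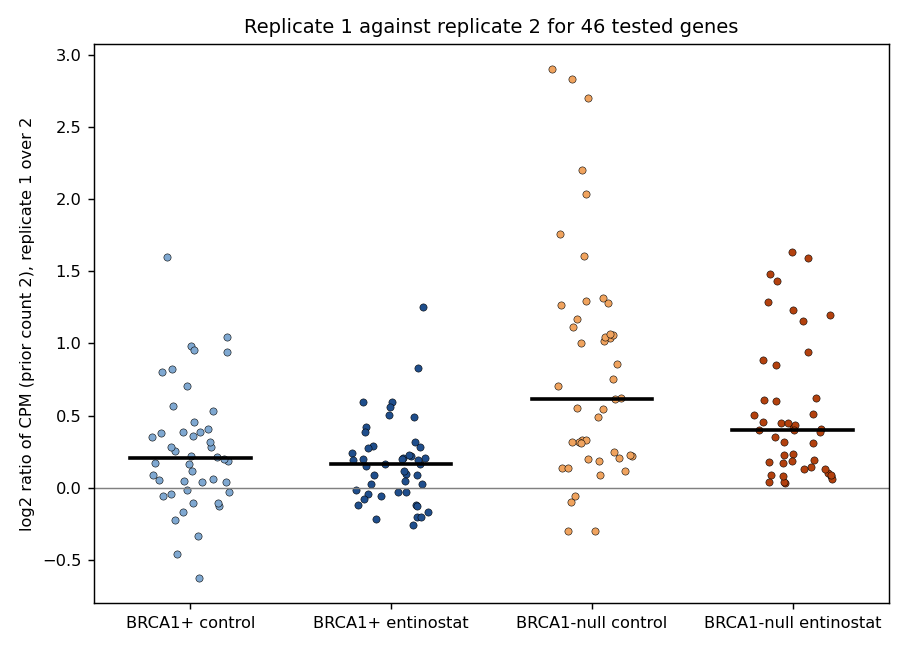
Log2 ratio of replicate 1 to replicate 2 for each of the 46 tested interferon-stimulated genes (points) in the 4 groups, with the median as a bar; the vertical axis is a log2 ratio of CPM. All points of BRCA1-null entinostat lie above 0, and the points of BRCA1-null control reach 2.90 (OAS2).

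The largest ratio in BRCA1-null control cells belonged to OAS2, at 2.90 on the log2 scale, and in BRCA1-null entinostat cells to OASL, at 1.63. Over 1.5 times more in replicate 1 of both BRCA1-null groups were 12 genes: OAS1, OAS2, OASL, IFIT1, IFIT2, IFIT5, IFITM1, GBP2, MX1, IFI6, IFI27 and IFI44L. Across the 46 genes the ratios of BRCA1-null control and BRCA1-null entinostat cells correlated at Pearson's r = 0.74 (Spearman's rho 0.65), and those of the BRCA1+ groups at 0.62 (0.57). These are correlations across genes, which are not independent replicates, and the compared ratios share the library numbers.

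Expression was then compared between the lines in DMSO, to ask how the effector genes differ with BRCA1 status when no interferon was added. The majority lay higher in BRCA1-null cells. Of the 46 tested genes, 26 were higher and 4 (GBP1, APOL2, BST2 and PLSCR1) were lower in BRCA1-null control than in BRCA1+ control cells, and 16 were not called (adjusted p under 0.05 in the quasi-likelihood test of edgeR, adjusted by Benjamini-Hochberg over all genes). The called share was 65.2%, against 42.2% of all tested genes. In the higher direction it was 56.5%, against 21.1%, and in the lower direction 8.7%, against 21%. The median log2 fold change of the 46 genes was 0.59, and that of all tested genes was 0.01. These lists were not drawn independently of the data, so the shares are a description. In bulk RNA, a change in the fraction of cells that express a gene and a change in RNA per cell cannot be told apart. Within DMSO, both BRCA1-null libraries lay above both BRCA1+ libraries for 29 genes (63%, against 36% of all genes) and below them for 8 (17.4%, against 34.8%). All 4 BRCA1-null libraries lay above all 4 BRCA1+ libraries for 23 genes (50%, against 20.1% of all genes), and below them for GBP1, APOL2, USP18 and PLSCR1 (8.7%, against 20.1%). BRCA1-null control replicate 2, the lower of its pair for most of these genes, was by itself above every BRCA1+ library for the same 23.

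With any 1 control library left out, fewer of all tested genes were called. Whether the effector genes lost calls to the same degree was not tested. Among the effector genes, the number of called genes also depended on single libraries. It was 18 (17 higher, 1 lower) without BRCA1+ control replicate 1 and 15 (11 higher, 4 lower) without BRCA1+ control replicate 2. It was 22 (15 higher, 7 lower) without BRCA1-null control replicate 1, where IFIT5, HERC5 and EPSTI1 were called lower, and 30 (29 higher, 1 lower) without BRCA1-null control replicate 2. A call was kept under each of 16 alternative settings by 12 genes: OAS3, IFITM1, IFITM2, GBP1, APOL1, APOL6, IFI44, DDX60L, ISG20, SP100, XAF1 and LAP3. The other 18 lost it under at least 1 setting, 11 of them without BRCA1-null control replicate 1, and none changed sign.

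**Figure D2:**
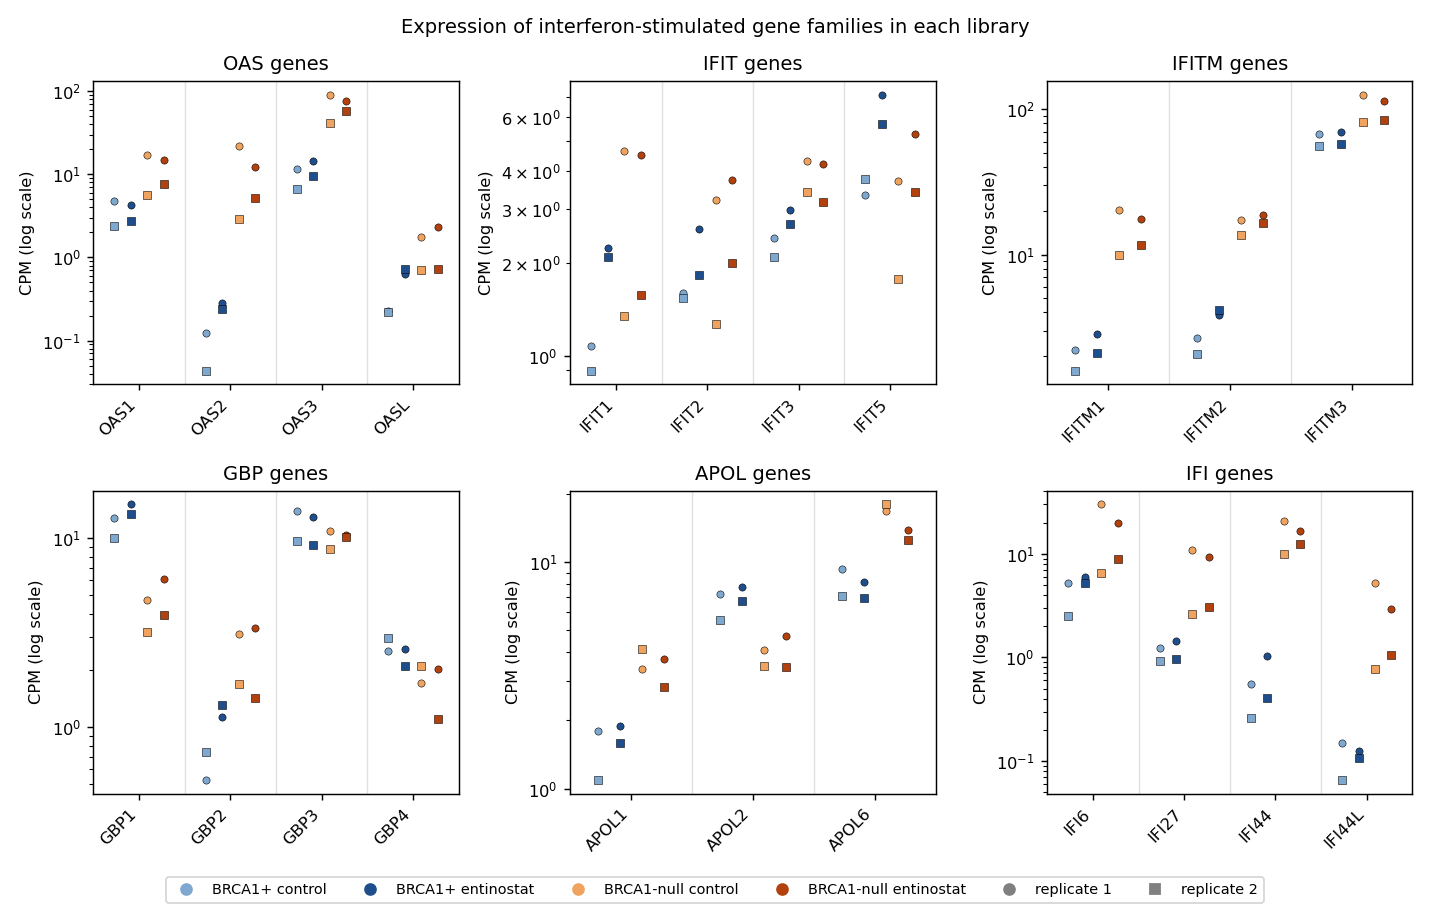
CPM of each library on a log scale for the OAS, IFIT, IFITM, GBP, APOL and IFI genes, with colour for the group and circles and squares for replicates 1 and 2. All 4 BRCA1-null libraries lie above all 4 BRCA1+ libraries for OAS1, OAS2, OAS3, the 3 IFITM genes and the 4 IFI genes, while GBP1 and APOL2 show the opposite order.

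The OAS genes encode 2′-5′-oligoadenylate synthetases, which sense double-stranded RNA and activate the ribonuclease RNase L, and OASL, a related protein without that activity. All 4 were called higher in BRCA1-null control cells. OAS3 lay at 11.6 and 6.62 CPM in BRCA1+ control libraries and 14.4 and 9.55 CPM under entinostat, against 90.3 and 41.7 CPM in BRCA1-null control libraries and 76.4 and 57.8 CPM under entinostat. It was the most abundant OAS gene in CPM in each library, the lines did not overlap, and it was 7.29-fold higher in BRCA1-null control cells (log2 fold change 2.86 ± 0.39, SE; adjusted p = 0.00043). OAS1 lay at 4.78 and 2.40 CPM in BRCA1+ control libraries and 4.23 and 2.78 CPM under entinostat, against 17.2 and 5.61 CPM in BRCA1-null control libraries and 14.7 and 7.64 CPM under entinostat. The lines were separate, but replicate 1 of BRCA1-null control was 3.06 times replicate 2, and the log2 fold change of 1.66 ± 0.57 (adjusted p = 0.043) became 0.69, not called, without that library. The OAS1 call was also lost with the DESeq2 Wald test and without any one of the BRCA1+ libraries.

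OAS2 showed the widest range of the 49 genes. It lay at 0.125 and 0.0436 CPM in BRCA1+ control libraries and 0.284 and 0.237 CPM under entinostat, against 21.8 and 2.89 CPM in BRCA1-null control libraries and 12.1 and 5.12 CPM under entinostat. The 2 BRCA1+ control libraries held 5 and 2 counts and the 2 BRCA1-null control libraries 993 and 157. Scaled by library size, the ratio of summed counts was 141, with an exact 95% counting interval of 68.4 to 352. The fitted log2 fold change was 7.15 ± 1.67 (adjusted p = 0.0076), and the call was lost without BRCA1+ control replicate 2. OASL lay at 0.225 and 0.218 CPM in BRCA1+ control libraries and 0.631 and 0.733 CPM under entinostat, against 1.78 and 0.699 CPM in BRCA1-null control libraries and 2.32 and 0.718 CPM under entinostat. The control groups were separate (log2 fold change 2.42 ± 0.83, adjusted p = 0.041; the call was lost without BRCA1-null control replicate 1 or any one of the BRCA1+ libraries), whereas BRCA1+ entinostat replicate 2 exceeded the second library of both BRCA1-null groups. OAS1, OAS3 and OAS2 lie side by side on chromosome 12 (113344739 to 113449528 on hg19), and OASL lies apart on the same chromosome (121458095 to 121477045). Among the 20 tested genes nearest to the first locus, 11 were higher and 1 was lower in BRCA1-null control cells (median log2 fold change 0.20, range -0.30 to 1.08), where 21.1% of all tested genes were higher and 21% lower, and among those nearest to OASL, 10 were higher and none was lower (median 0.45, highest 1.77). The part of these neighbourhoods in the OAS results was not tested.

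The IFITM genes encode small membrane proteins that block the fusion of viruses with endosomal or surface membranes. All 3 were called higher in BRCA1-null control cells. IFITM2 lay at 2.65 and 2.07 CPM in BRCA1+ control libraries and 3.85 and 4.18 CPM under entinostat, against 17.2 and 13.7 CPM in BRCA1-null control libraries and 18.8 and 16.5 CPM under entinostat. With replicates this close, its difference of 2.71 ± 0.18 on the log2 scale (6.56-fold) had the smallest adjusted p of the 46 genes, 7.4e-06. IFITM1 lay at 2.20 and 1.59 CPM in BRCA1+ control libraries and 2.84 and 2.11 CPM under entinostat, against 20.2 and 9.97 CPM in BRCA1-null control libraries and 17.6 and 11.6 CPM under entinostat. The lines did not overlap, and the log2 fold change in DMSO was 2.98 ± 0.42 (adjusted p = 0.00051).

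IFITM3, the most abundant of the 3, lay at 67.5 and 55.6 CPM in BRCA1+ control libraries and 69.8 and 57.3 CPM under entinostat, against 126 and 81.9 CPM in BRCA1-null control libraries and 115 and 85.1 CPM under entinostat. Its difference was smaller, 1.69-fold (log2 fold change 0.75 ± 0.21, adjusted p = 0.018), and the call was lost without BRCA1+ control replicate 2 or BRCA1-null control replicate 1. The 3 genes lie on chromosome 11 between 308107 and 320914 (hg19) and share sequence with each other and with an unnamed transcript: 25.4% of the 50-base words of IFITM1, 17.9% of those of IFITM2 and 15.3% of those of IFITM3 occur in another gene. How the counting treated reads with several positions was not stated, so the division of counts among the 3 is uncertain.

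The IFIT genes, which encode tetratricopeptide repeat proteins that bind foreign or stress RNA and restrain translation, differed less between the lines. Only IFIT3 was called among the 4 in DMSO. It lay at 2.43 and 2.09 CPM in BRCA1+ control libraries and 3.00 and 2.69 CPM under entinostat, against 4.31 and 3.42 CPM in BRCA1-null control libraries and 4.22 and 3.16 CPM under entinostat, a log2 fold change in DMSO of 0.77 ± 0.21 (adjusted p = 0.018). The call was lost without BRCA1+ control replicate 2 or BRCA1-null control replicate 1. IFIT1, often used as a marker of an interferon response, lay at 1.08 and 0.893 CPM in BRCA1+ control libraries and 2.24 and 2.09 CPM under entinostat, against 4.66 and 1.34 CPM in BRCA1-null control libraries and 4.50 and 1.58 CPM under entinostat. Replicate 1 of BRCA1-null control was 3.47 times replicate 2, and the log2 fold change of 1.56 ± 0.70 was not called (adjusted p = 0.10). It was called with the DESeq2 Wald test (1.60) and with the replicate number as a block. Without BRCA1-null control replicate 2 the log2 fold change of IFIT1 was 2.25.

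IFIT2 lay at 1.60 and 1.55 CPM in BRCA1+ control libraries and 2.59 and 1.83 CPM under entinostat, against 3.23 and 1.27 CPM in BRCA1-null control libraries and 3.75 and 2.01 CPM under entinostat. The control libraries of the lines overlapped, with a log2 fold change of 0.47 ± 0.47 (adjusted p = 0.46). IFIT5 lay at 3.35 and 3.77 CPM in BRCA1+ control libraries and 7.10 and 5.69 CPM under entinostat, against 3.71 and 1.78 CPM in BRCA1-null control libraries and 5.29 and 3.42 CPM under entinostat, with a log2 fold change in DMSO of -0.41 ± 0.34 (adjusted p = 0.36). The 4 genes lie within one locus on chromosome 10 (91061706 to 91180759). Of the 20 tested genes around it, 2 were higher and 2 were lower in BRCA1-null control cells.

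The guanylate-binding proteins are large GTPases that are strongly induced by IFN-gamma. Their genes differed in opposite directions between the lines. GBP1 lay at 12.9 and 10 CPM in BRCA1+ control libraries and 15.1 and 13.5 CPM under entinostat, against 4.70 and 3.20 CPM in BRCA1-null control libraries and 6.06 and 3.95 CPM under entinostat. All BRCA1-null libraries lay below all BRCA1+ libraries, and GBP1 was 2.91-fold lower in BRCA1-null control cells (log2 fold change -1.54 ± 0.23, adjusted p = 0.00067). GBP2 lay at 0.525 and 0.741 CPM in BRCA1+ control libraries and 1.14 and 1.31 CPM under entinostat, against 3.10 and 1.69 CPM in BRCA1-null control libraries and 3.35 and 1.44 CPM under entinostat. The lines were separate in the other direction, 3.65-fold higher in BRCA1-null control cells (log2 fold change 1.87 ± 0.52, adjusted p = 0.017), and the call was lost without BRCA1-null control replicate 1 or either BRCA1+ control library.

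GBP3 lay at 14.0 and 9.65 CPM in BRCA1+ control libraries and 13.0 and 9.18 CPM under entinostat, against 10.9 and 8.76 CPM in BRCA1-null control libraries and 10.4 and 10.2 CPM under entinostat, and the lines overlapped. GBP4 lay at 2.53 and 2.96 CPM in BRCA1+ control libraries and 2.59 and 2.11 CPM under entinostat, against 1.71 and 2.12 CPM in BRCA1-null control libraries and 2.03 and 1.10 CPM under entinostat. Neither was called, with log2 fold changes of -0.26 ± 0.21 and -0.51 ± 0.26 and adjusted p of 0.34 and 0.14. The 4 genes adjoin on chromosome 1 (89472360 to 89664633), where 4 of the 20 tested neighbours were higher and 10 were lower in BRCA1-null control cells (median log2 fold change -0.26). The share of the 50-base words of GBP1 that occur elsewhere was 11.8%, most of it in the pseudogene GBP1P1.

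The APOL genes encode apolipoprotein L proteins, of which APOL1 is the secreted factor that lyses trypanosomes. All 3 were called, 2 of them higher and 1 lower. APOL6 lay at 9.31 and 7.10 CPM in BRCA1+ control libraries and 8.20 and 6.98 CPM under entinostat, against 16.8 and 18.0 CPM in BRCA1-null control libraries and 13.9 and 12.6 CPM under entinostat. The lines did not overlap, the log2 fold change in DMSO was 1.10 ± 0.14 (2.14-fold, adjusted p = 0.00025), and the 2 BRCA1-null control libraries were near each other. APOL1 lay at 1.80 and 1.09 CPM in BRCA1+ control libraries and 1.89 and 1.60 CPM under entinostat, against 3.36 and 4.14 CPM in BRCA1-null control libraries and 3.73 and 2.80 CPM under entinostat, with a log2 fold change of 1.41 ± 0.26 (adjusted p = 0.0024). APOL2, by contrast, lay at 7.20 and 5.53 CPM in BRCA1+ control libraries and 7.79 and 6.75 CPM under entinostat, against 4.09 and 3.50 CPM in BRCA1-null control libraries and 4.74 and 3.45 CPM under entinostat. It was 1.68-fold lower in BRCA1-null control cells (log2 fold change -0.75 ± 0.20, adjusted p = 0.014), although its listed span lies next to that of APOL1 on chromosome 22. The APOL2 call was lost without BRCA1+ control replicate 1 or BRCA1-null control replicate 2.

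MX1, a dynamin-like GTPase that traps incoming viral ribonucleoproteins, lay at 1.15 and 0.349 CPM in BRCA1+ control libraries and 0.725 and 0.388 CPM under entinostat, against 13.8 and 1.89 CPM in BRCA1-null control libraries and 5.97 and 2.42 CPM under entinostat. Every BRCA1-null library exceeded every BRCA1+ library, but the 2 BRCA1-null control libraries differed 7.27-fold from each other. The log2 fold change in DMSO was 3.37 ± 1.06 (adjusted p = 0.030) and 1.41, not called, without BRCA1-null control replicate 1, and the call was also lost without either BRCA1+ control library. MX2, its neighbour on chromosome 21, had 0 counts in both BRCA1+ control libraries and 1 and 0 under entinostat, against 10 and 0 counts in BRCA1-null control libraries and 7 and 1 under entinostat, and did not pass the filter. Its counts came almost wholly from the BRCA1-null libraries numbered 1.

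The 4 IFI genes were all higher in BRCA1-null control cells and included the second largest difference after OAS2. IFI44, a cytoplasmic protein induced by type I interferon, lay at 0.550 and 0.261 CPM in BRCA1+ control libraries and 1.04 and 0.410 CPM under entinostat, against 20.6 and 9.97 CPM in BRCA1-null control libraries and 16.5 and 12.5 CPM under entinostat. The difference was 37.8-fold (log2 fold change 5.24 ± 0.57, adjusted p = 0.00012) and was called under all 16 alternative settings. IFI44L, its neighbour and paralogue, lay at 0.150 and 0.0654 CPM in BRCA1+ control libraries and 0.126 and 0.108 CPM under entinostat, against 5.27 and 0.773 CPM in BRCA1-null control libraries and 2.92 and 1.05 CPM under entinostat. The BRCA1+ libraries held 3 to 6 counts each, and the log2 fold change of 4.73 ± 1.36 (adjusted p = 0.020) was 2.87, not called, without BRCA1-null control replicate 1, and the call was also lost without either BRCA1+ control library. Around the 2 genes on chromosome 1 (79086088 to 79129763), 1 of the 20 tested neighbours was higher and 12 were lower in BRCA1-null control cells (median log2 fold change -0.38, highest 0.79).

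IFI27, a mitochondrial and nuclear membrane protein, lay at 1.23 and 0.915 CPM in BRCA1+ control libraries and 1.45 and 0.970 CPM under entinostat, against 10.9 and 2.63 CPM in BRCA1-null control libraries and 9.41 and 3.09 CPM under entinostat. IFI6, a small mitochondrial protein that opposes apoptosis, lay at 5.18 and 2.48 CPM in BRCA1+ control libraries and 5.99 and 5.22 CPM under entinostat, against 30.1 and 6.51 CPM in BRCA1-null control libraries and 19.7 and 8.84 CPM under entinostat. Of the 50-base words of IFI6, 16.4% occur in another gene, LINC02574, so its counts are uncertain. IFI27 and IFI6 were both separate between the lines, with log2 fold changes in DMSO of 2.62 ± 0.85 and 2.25 ± 0.72 (adjusted p = 0.033 for each). Without BRCA1-null control replicate 1 these values were 1.33 and 0.81, and neither was called, nor was either without one of the BRCA1+ control libraries.

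ISG15 is a ubiquitin-like modifier, which UBE2L6 and the ligase HERC5 attach to proteins and USP18 removes. HERC6 was grouped with these genes. UBE2L6 was the only called gene of the 5, at 7.40 and 5.93 CPM in BRCA1+ control and 10.6 and 8.52 CPM in BRCA1-null control libraries (log2 fold change 0.52 ± 0.17, adjusted p = 0.032; the call was lost without BRCA1+ control replicate 2 or BRCA1-null control replicate 1). ISG15 itself was abundant in both lines, at 31.7 and 26.0 CPM in BRCA1+ control and 52.1 and 31.9 CPM in BRCA1-null control libraries, and was not called (log2 fold change 0.54 ± 0.21, adjusted p = 0.064). HERC5 had a log2 fold change of -0.79 ± 0.32 and HERC6, beside it on chromosome 4, one of 0.47 ± 0.34 (adjusted p = 0.072 and 0.30). HERC5 was called lower with the DESeq2 Wald test and with the replicate number as a block. That block also called ISG15 higher. Without BRCA1-null control replicate 1 the log2 fold change of HERC5 was -1.37. Without BRCA1-null control replicate 2 those of HERC6 and ISG15 were 1.00 and 0.86. USP18, which also blunts signalling from the type I receptor, lay at 25.2 to 34.3 CPM in all 8 libraries, with a log2 fold change of -0.15 ± 0.09 (adjusted p = 0.18), but 25.6% of its 50-base words occur in another gene, mainly USP41, so its counts are uncertain.

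Of the 7 genes that act on RNA or nucleotides, 4 were higher in BRCA1-null control cells. ISG20, an exonuclease that degrades RNA, lay at 0.725 and 0.545 CPM in BRCA1+ control libraries and 1.67 and 1.83 CPM under entinostat, against 6.99 and 6.09 CPM in BRCA1-null control libraries and 14.8 and 10.3 CPM under entinostat. The difference in DMSO was 10.3-fold (log2 fold change 3.37 ± 0.31, adjusted p = 4.3e-05). Unlike most of the strongly different genes, ISG20 varied little between the 2 BRCA1-null control libraries. RSAD2, the radical SAM enzyme viperin, lay at 0.525 and 0.501 CPM in BRCA1+ control libraries and 0.505 and 0.496 CPM under entinostat, against 1.89 and 0.920 CPM in BRCA1-null control libraries and 0.768 and 0.551 CPM under entinostat (log2 fold change in DMSO 1.41 ± 0.41, adjusted p = 0.022; the call was lost without BRCA1-null control replicate 1 or either BRCA1+ control library).

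The helicase-like sensor DDX60 lay at 5.20 and 4.79 CPM in BRCA1+ control libraries and 4.92 and 4.76 CPM under entinostat, against 15.1 and 7.17 CPM in BRCA1-null control libraries and 10.7 and 9.46 CPM under entinostat (log2 fold change in DMSO 1.13 ± 0.31, adjusted p = 0.016; not called without either BRCA1+ control library). Its paralogue DDX60L lay at 9.21 and 8.87 CPM in BRCA1+ control libraries and 10.1 and 8.71 CPM under entinostat, against 15.5 and 12.5 CPM in BRCA1-null control libraries and 14.8 and 14.2 CPM under entinostat (log2 fold change 0.63 ± 0.13, adjusted p = 0.0042). Both genes were separate between the lines in every library. The double-stranded RNA kinase PKR (EIF2AK2), the RNA-editing enzyme ADAR and the nucleotide kinase CMPK2 were not called, with log2 fold changes of 0.12 ± 0.10, -0.00 ± 0.07 and 0.19 ± 0.38. The listed spans of SRGAP2D, with 559 to 717 counts per library, and FAM72C, with 165 to 370, enclose ADAR, which had 8053 to 14245. The small negative value of ADAR turned positive with upper-quartile scaling (0.04).

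Among the restriction and membrane factors, SAMD9L, an inhibitor of poxvirus replication, lay at 1.10 and 1.11 CPM in BRCA1+ control libraries and 2.84 and 2.48 CPM under entinostat, against 5.47 and 2.41 CPM in BRCA1-null control libraries and 6.46 and 4.55 CPM under entinostat. It was 3.46-fold higher in BRCA1-null control cells (log2 fold change 1.79 ± 0.44, adjusted p = 0.010), while BRCA1+ entinostat libraries exceeded BRCA1-null control replicate 2. Its call was lost without BRCA1+ control replicate 2. TRIM5, a retroviral capsid factor, was 0.40 ± 0.11 higher on the log2 scale (adjusted p = 0.016). The tetherin gene BST2 and the phospholipid scramblase PLSCR1 were lower, with log2 fold changes of -0.23 ± 0.08 (adjusted p = 0.042) and -0.45 ± 0.14 (adjusted p = 0.030), and both calls, like that of TRIM5, were lost without single libraries. The BST2 call was also lost with upper-quartile factors, the stricter filter and only the groups compared. SAMD9 was not called (0.39 ± 0.18, adjusted p = 0.12). TRIM22 did not pass the filter, with 1 and 0 counts in BRCA1+ control libraries and 6 and 1 under entinostat, against 26 and 9 counts in BRCA1-null control libraries and 8 and 2 under entinostat. The ratio of its summed counts in DMSO, scaled by library size, was 30.1, with an exact 95% counting interval of 5.06 to 1222. Of the 50-base words of TRIM22, 15.7% occur in another gene, mainly OR56B1, so its counts are uncertain.

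Of the 7 remaining genes, the nuclear body protein SP100, the aminopeptidase LAP3 and XAF1, a pro-apoptotic antagonist of XIAP, were higher in BRCA1-null control cells. XAF1 lay at 0.475 and 0.610 CPM in BRCA1+ control libraries and 0.662 and 0.690 CPM under entinostat, against 2.00 and 1.29 CPM in BRCA1-null control libraries and 1.26 and 1.01 CPM under entinostat (log2 fold change in DMSO 1.56 ± 0.33, adjusted p = 0.0046). SP100 and LAP3 differed by 0.55 ± 0.09 and 0.39 ± 0.06 on the log2 scale (adjusted p = 0.0010 and 0.0011) and, like XAF1, were called under all 16 settings. SP110, EPSTI1 and NMI were not called, with log2 fold changes between -0.31 and -0.07. RTP4, a chaperone of receptor transport, had 0 counts in both BRCA1+ control libraries, 0 and 2 under entinostat, against 11 and 4 counts in BRCA1-null control libraries and 10 and 4 under entinostat. In DMSO its summed counts in BRCA1-null cells, scaled by library size, were 4.30 times a floor of 3 counts over the BRCA1+ control group. This ratio leaves out the counting error of the BRCA1-null counts.

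**Figure D3:**
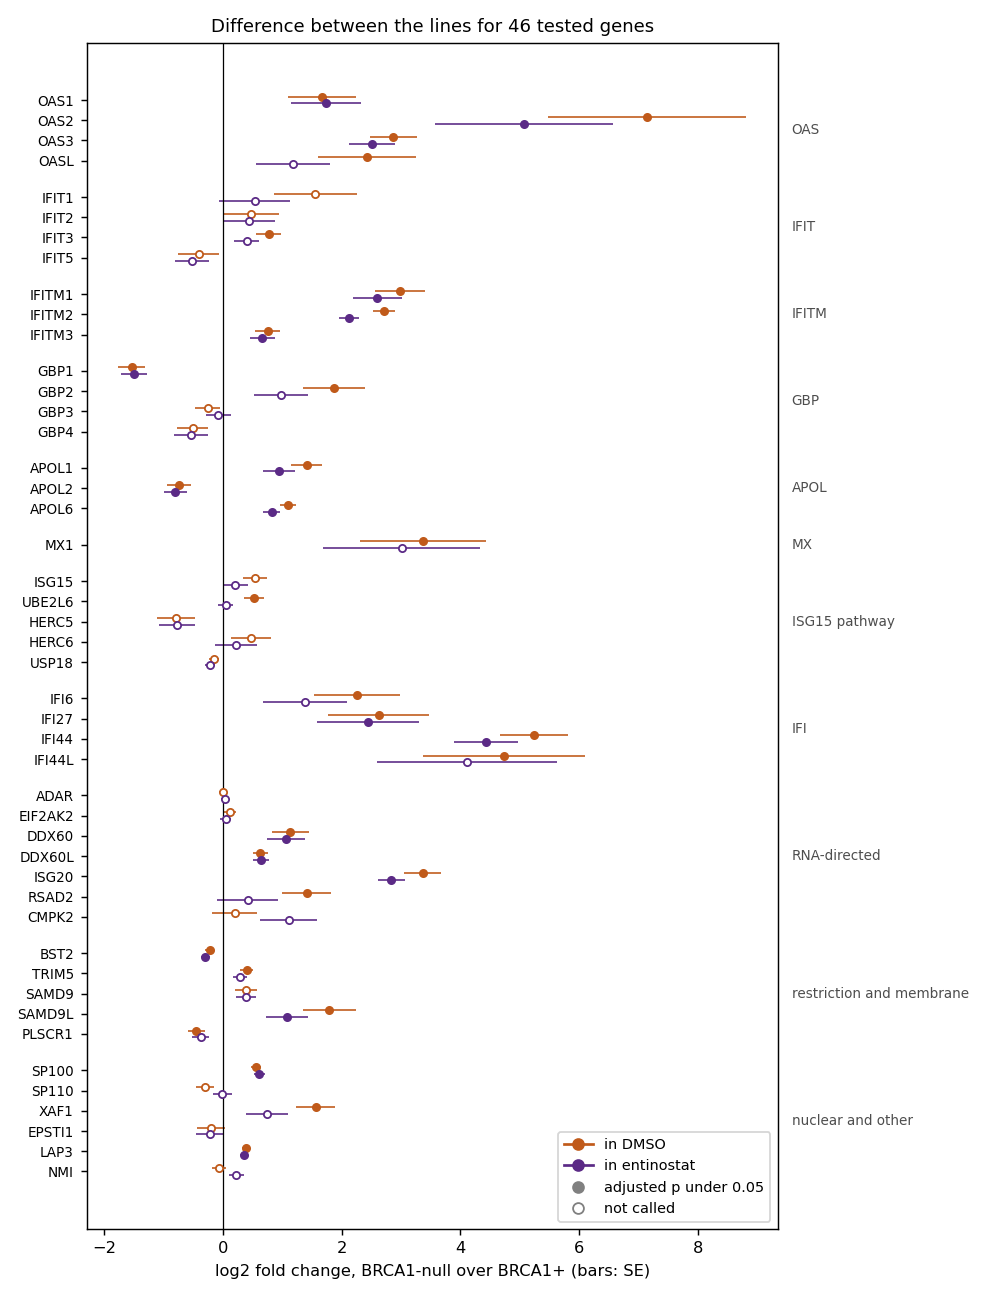
Log2 fold change of BRCA1-null over BRCA1+ cells (horizontal axis, bars are SE) for the 46 tested genes grouped by role, in DMSO (orange) and in entinostat (purple), with filled points for an adjusted p under 0.05. The values reach 7.15 for OAS2 and -1.54 for GBP1 in DMSO, and no called gene changes direction between the treatments.

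The same comparison was made between the entinostat-treated lines. Of the 46 genes, 16 were higher and 3 (GBP1, APOL2 and BST2) were lower in BRCA1-null entinostat than in BRCA1+ entinostat cells. The called share was 41.3%, against 39.4% of all tested genes, with 34.8% against 20.5% in the higher direction and 6.52% against 18.9% in the lower direction. The median log2 fold change was 0.49, against 0.02 over all genes. The 2 BRCA1-null entinostat libraries lay above both BRCA1+ entinostat libraries for 28 genes (60.9%, against 36.3%) and below them for 8 (17.4%, against 33.3%). All 19 called genes had been called in DMSO in the same direction, whereas 11 were called in DMSO but not here: OASL, IFIT3, GBP2, MX1, UBE2L6, IFI6, IFI44L, RSAD2, TRIM5, PLSCR1 and XAF1. These 11 are not shown to differ in effect between the treatments, since the test of the difference itself, given below, called none of them. The largest called values were 5.08 ± 1.5 for OAS2 (adjusted p = 0.023), 4.43 ± 0.54 for IFI44 (adjusted p = 0.00022), 2.84 ± 0.23 for ISG20 (adjusted p = 2.5e-05) and 2.60 ± 0.42 for IFITM1 (adjusted p = 0.0011). OAS3 (2.52 ± 0.39, adjusted p = 0.00085), IFITM2 (2.13 ± 0.17, adjusted p = 1.9e-05) and GBP1 (-1.49 ± 0.22, adjusted p = 0.00065) also kept both their direction and their call. The OAS2 call was lost without either BRCA1+ entinostat library or BRCA1-null entinostat replicate 1. The number of called genes was lower without either BRCA1+ entinostat library, and so was the number over all tested genes.

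Entinostat was next compared with DMSO within each line, to ask whether histone deacetylase inhibition moved these genes. Few were called. In BRCA1+ cells UBE2L6 and ISG20 rose and NMI fell, 3 of 46 genes (6.52%, against 14.1% of all tested genes; 8.13% rose and 6% fell). In BRCA1-null cells UBE2L6 and ISG20 rose and LAP3 fell, again 3 of 46 (6.52%, against 10.8% of all tested genes; 7.57% rose and 3.19% fell). The median log2 fold change was 0.14 for BRCA1+ and -0.00 for BRCA1-null cells, against 0.00 and 0.02 over all tested genes. None of the genes of the OAS, IFIT, IFITM, GBP, APOL and IFI families was called in either line.

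UBE2L6, the conjugating enzyme for ISG15, responded most. It lay at 7.40 and 5.93 CPM in BRCA1+ control libraries and 23.9 and 19.7 CPM under entinostat, against 10.6 and 8.52 CPM in BRCA1-null control libraries and 22.9 and 21.5 CPM under entinostat. Entinostat and DMSO libraries did not overlap, and the rise was 3.26-fold in BRCA1+ (log2 fold change 1.70 ± 0.16, adjusted p = 0.00047) and 2.34-fold in BRCA1-null cells (1.22 ± 0.14, adjusted p = 0.0021). In both lines the call was kept under all 16 settings. The line difference of UBE2L6 seen in DMSO was 0.04 ± 0.13 on the log2 scale in entinostat (adjusted p = 0.84). ISG20 rose 2.80-fold in BRCA1+ (log2 fold change 1.48 ± 0.42, adjusted p = 0.048) and 1.94-fold in BRCA1-null cells (0.95 ± 0.17, adjusted p = 0.012), on the CPM values given above. NMI, a partner of STAT proteins, lay at 60.6 and 52.2 CPM in BRCA1+ control and 46 and 35.1 CPM in BRCA1+ entinostat libraries (log2 fold change -0.48 ± 0.13, adjusted p = 0.035). LAP3 lay at 111 and 104 CPM in BRCA1-null control and 92.9 and 90.4 CPM in BRCA1-null entinostat libraries (-0.23 ± 0.06, adjusted p = 0.049). The ISG20 call in BRCA1+ cells was lost without any one of the 4 BRCA1+ or 2 BRCA1-null control libraries, and that in BRCA1-null cells without BRCA1-null control replicate 2 or BRCA1-null entinostat replicate 1. The NMI call was lost with upper-quartile factors and without either BRCA1+ control library or BRCA1+ entinostat replicate 2, and the LAP3 call was lost under 11 of the 16 settings.

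**Figure D4:**
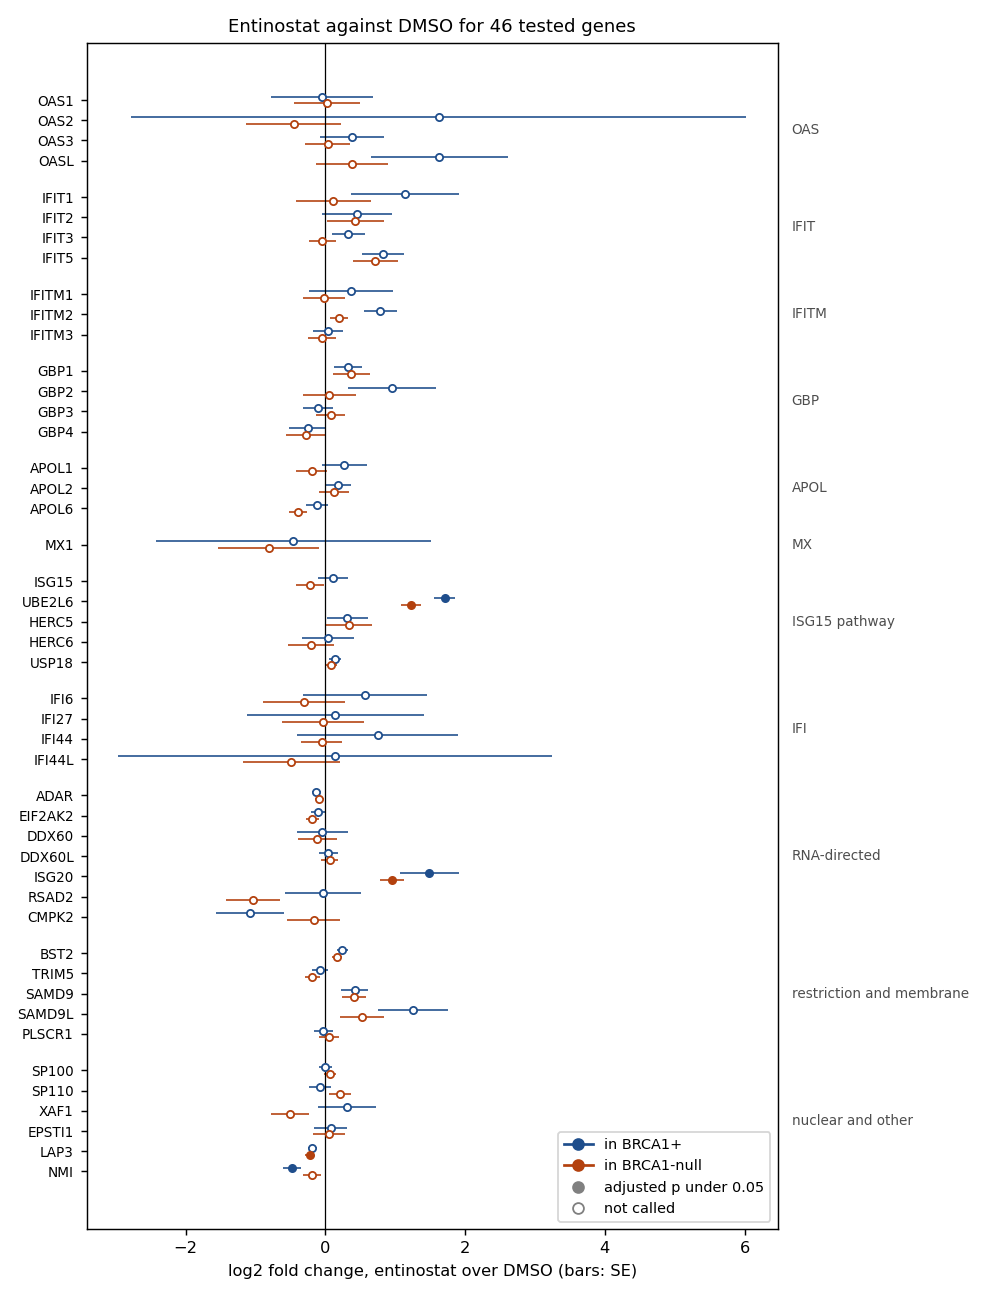
Log2 fold change of entinostat over DMSO (horizontal axis, bars are SE) for the 46 tested genes grouped by role, in BRCA1+ (blue) and BRCA1-null (red) cells, with filled points for an adjusted p under 0.05. UBE2L6 and ISG20 are called in both lines (1.70 and 1.48 in BRCA1+). The widest bar is that of OAS2 in BRCA1+ cells (SE 4.41), where DMSO held 7 counts. Part of its width may come from how the SE was derived.

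Several uncalled genes had separate groups in BRCA1+ cells. All entinostat libraries lay above all DMSO libraries for 17 of the 46 genes (37%, against 28.9% of all tested genes), including OAS2, OASL, the 4 IFIT genes, IFITM2, GBP1, GBP2, SAMD9 and SAMD9L, and below them for 4 (8.7%, against 28.1%). In BRCA1-null cells the counts were 4 above (8.7%, against 30%) and 7 below (15.2%, against 24.7%). For IFIT5 the log2 fold change was 0.82 ± 0.30 in BRCA1+ cells (adjusted p = 0.11) and 0.71 ± 0.32 in the other line (adjusted p = 0.19). IFITM2 had 0.78 ± 0.23 (adjusted p = 0.054) and 0.20 ± 0.13 (adjusted p = 0.37), and SAMD9L had 1.25 ± 0.50 and 0.53 ± 0.31 (adjusted p = 0.13 and 0.32).

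The interaction, in which the entinostat effect of BRCA1+ cells is subtracted from that of BRCA1-null cells, tests whether the lines responded differently. None of the 46 genes was called by edgeR's quasi-likelihood test, none had an unadjusted p under 0.05, and DESeq2 called none of them. Without BRCA1-null control replicate 2, 10 of the 46 had an unadjusted p under 0.05 (631 of all 17714 genes), and again 0 were called. Over all 17714 genes the same test called 0 (0%), and 827 had an unadjusted p under 0.05. The median difference over the 46 genes was -0.11 on the log2 scale, against 0.03 over all genes. The precision was limited: the difference was -0.59 ± 0.27 for IFITM2 and -0.48 ± 0.21 for UBE2L6. For OAS2 it was -2.07 ± 4.44, an SE derived from the F statistic that does not combine with those of its other comparisons.

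The genes upstream of the effectors were examined with fixed lists of interferons, receptors, factors and sensors. Of 21 interferon genes, 13 had 0 counts in every library, IFNG and most IFN-alpha genes among them, and 6, including IFNB1 and IFNL1, had at most 3 counts. IFNK had 2 to 10 counts and IFNE, an epithelial type I interferon, 13 to 40 counts per library. IFNE was the only one tested and was not called between the lines in DMSO (log2 fold change 0.04 ± 0.52, adjusted p = 0.96). The ligand genes with at most 3 counts per library were at or under the limit that a count of 0 allows.

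Of 9 receptor and kinase genes, 3 were higher and 1 was lower in BRCA1-null control cells (44.4% called, near the 42.2% of all tested genes). IL10RB, a subunit of the type III receptor, and IFNAR2, of the type I receptor, were 0.99 ± 0.16 and 0.68 ± 0.12 higher on the log2 scale (adjusted p = 0.0011 and 0.0019), IFNAR1 was 0.24 ± 0.08 higher (adjusted p = 0.040), and the kinase gene JAK1 was 0.67 ± 0.08 lower (log2 fold change -0.67, adjusted p = 0.00017). Of 9 STAT and IRF genes, 3 were higher and 1 was lower, again 44.4%. IRF9 lay at 12.8 and 9.11 CPM in BRCA1+ control and 38.5 and 22.3 CPM in BRCA1-null control libraries (log2 fold change 1.47 ± 0.28, adjusted p = 0.0027). IRF7 and IRF5 were also higher (1.09 ± 0.30 and 0.71 ± 0.13, adjusted p = 0.016 and 0.0023), and IRF3 was lower (-0.37 ± 0.06, adjusted p = 0.0010). STAT2, at 28.0 to 41.8 CPM over all libraries, was not called (log2 fold change -0.11 ± 0.12, adjusted p = 0.49).

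Among 12 nucleic acid sensor genes, 11 were tested, and 5 were higher and 2 were lower in BRCA1-null control cells (45.5% higher against 21.1% of all tested genes, and 18.2% lower against 21%). IFI16, a DNA sensor, lay at 0.450 and 0.240 CPM in BRCA1+ control and 29.4 and 19.4 CPM in BRCA1-null control libraries (log2 fold change 6.15 ± 0.39, adjusted p = 5.7e-06). DHX58, which encodes the RNA helicase LGP2, and ZBP1, a sensor of Z-form nucleic acids, were 3.52 ± 0.48 and 1.83 ± 0.47 higher (adjusted p = 0.00041 and 0.013), and IFIH1 and TMEM173, which encode MDA5 and STING, were 0.60 ± 0.12 and 0.67 ± 0.13 higher (adjusted p = 0.0037 and 0.0032). TLR3 was lower (-0.89 ± 0.23, adjusted p = 0.012). With entinostat, IRF5 rose in both lines (0.83 ± 0.13 and 0.76 ± 0.11, adjusted p = 0.0056 and 0.0052), and IFI16, with values of 0.28 ± 0.94 and 0.47 ± 0.18, was not called in either line.

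Levels were compared between genes per kilobase of the length listed for each (RPKM, mean of 2 libraries). In BRCA1+ control cells BST2 stood highest of the 49 at 183 RPKM, followed by IFITM3 at 92.2, ISG15 at 43.3, ADAR at 39.5, LAP3 at 39.1 and NMI at 38.1, and the latter 4 lay close together. BST2, IFITM3 and ISG15 also led in BRCA1-null control cells, at 156, 156 and 63.1 RPKM, where BST2 and IFITM3 could not be ordered. OAS2 moved from rank 46 (0.0137 RPKM) in BRCA1+ control to rank 25 (2.00 RPKM) in BRCA1-null control cells, IFI44 from rank 37 to rank 14 and MX1 from rank 39 to rank 23, while GBP1 moved from rank 14 to rank 33. The sum over all 49 genes was 1103 and 1021 CPM in BRCA1+ control libraries and 1108 and 1053 CPM under entinostat, against 1486 and 1117 CPM in BRCA1-null control libraries and 1363 and 1177 CPM under entinostat. All BRCA1-null sums lay above all BRCA1+ sums, that of BRCA1-null control replicate 2 by little.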

How the data were processed

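Poly(A) RNA of the 8 libraries was analysed from the raw gene counts that the authors deposited as one table without normalisation. Per the study's methods and the submitters' processing notes, the authors used TopHat for alignment (genome build hg19) and NGSUtils for the counts of each gene. The treatment of strand and of reads with several positions is not given in the sources used here, so reads of overlapping genes cannot be separated; the only overlap of a studied gene was ADAR, inside the long spans listed for SRGAP2D and FAM72C. One entry without a name held 0 counts and was left out.

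Genes were kept by filterByExpr with 4 groups (17714 kept) and tested with edgeR 4.0.16 in R 4.3.3, in one quasi-likelihood fit of all 8 libraries (TMM factors, legacy set to FALSE, a mean per group, 4 residual degrees of freedom, two-sided). Genes were called at a Benjamini-Hochberg adjusted p under 0.05 over all tested genes. SEs were derived from each fold change and its F statistic. CPM used effective library sizes, and log2 ratios of replicates used a prior count of 2. Words of 50 bases were compared among GENCODE v44 transcripts on GRCh37. Total counts were 31900158 to 53549893, and n was 2 per group throughout.

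The genes, lists and tests were chosen with earlier results of these data known. The named genes were all genes of the 5 subfamilies and the MX pair, the 10 other genes with the largest called difference in DMSO, those called with entinostat, and up to 6 called genes per upstream list. Further genes of the 49 outside this rule, STAT2, and the interferon genes were named after their values were seen. The 16 alternatives were no filter, a minimum count of 50 in place of 10 (the stricter filter), size factors from DESeq2 or the upper quartile, the Wald test of DESeq2 1.42.0, the legacy estimate, a replicate block, only the groups compared, and the omission of each library. The fits were tested on simulated data. One result of the upstream lists is not reported here.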

Additional observations from a re-analysis of the deposited data

Results flagged for a closer look

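XAF1 was singled out because entinostat moved its libraries in opposite directions in the lines. Both BRCA1+ entinostat libraries (0.662 and 0.690 CPM) lay above both BRCA1+ control libraries (0.475 and 0.610 CPM), and both BRCA1-null entinostat libraries (1.26 and 1.01 CPM) lay below both BRCA1-null control libraries (2.00 and 1.29 CPM). The log2 fold changes with entinostat were 0.31 ± 0.42 and -0.50 ± 0.27. Their difference was -0.81 ± 0.50 on the log2 scale and was not called by edgeR's quasi-likelihood test (adjusted p = 0.97), so the responses are not shown to differ.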

How the results depend on the processing

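Of the log2 fold changes recomputed, 1559 kept their direction and side of the threshold, 130 lost a call, 76 gained one and 33 changed sign, none of the last for a called gene. The number of genes called between the lines was 30 in DMSO and 15 to 30 when 1 library was left out, and 19 in entinostat and 10 to 26. For entinostat in BRCA1+ cells it was 3, but 6 with the DESeq2 Wald test, 9 with only the groups compared and 1 to 6 without 1 library; in BRCA1-null cells it was 3, but 1 with only the groups compared and 1 to 4 without 1 library. Over all tested genes, each of these comparisons called fewer genes whenever 1 library was left out. The cause of these changes was not tested. The interaction called 0 of the 46 genes in each alternative run. Replicate numbers were not taken as pairs. Deviations of same-numbered libraries correlated positively in all 6 pairs of groups (Pearson's r 0.0523 to 0.287, Spearman's rho 0.131 to 0.378). With 2 numbers a pairing is not shown. With the replicate number as a block, 33 of the 46 genes were called between the lines in DMSO (against 50.6% of all tested genes). In entinostat 25 were called between the lines (against 47.4%). With entinostat 8 were called in BRCA1+ (against 24.4%) and 7 in BRCA1-null cells (against 20.5%). Among those called in DMSO with the block were IFIT1, ISG15 and HERC5 (log2 fold changes 1.53, 0.52 and -0.79), not called without it. Both BRCA1-null libraries numbered 1, and then both numbered 2, were also left out, which was chosen after seeing the data. The numbers of called genes changed in most comparisons, as did those over all tested genes.

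Uncalled log2 fold changes that changed sign in DMSO were those of ADAR (0.0413 with upper-quartile factors, 0.0346 with the stricter filter, 0.000454 with only the groups compared), without both libraries numbered 1 those of IFIT2 (-0.29), HERC6 (-0.26) and CMPK2 (-0.53), and without both numbered 2 those of ADAR (0.0888), IFIT5 (0.0566) and EPSTI1 (0.15). In entinostat they were IFIT1 (-0.46), IFIT2 (-0.11), UBE2L6 (-0.0174) and EIF2AK2 (-0.0212) without both numbered 1 and SP110 (0.14) without both numbered 2. When 1 library was left out, the lowest and highest values of these genes in DMSO were IFIT2 -0.29 to 1.04, IFIT5 -0.98 to 0.0564, GBP3 -0.51 to 0.0182, HERC6 -0.26 to 1.00, ADAR -0.0773 to 0.0887, CMPK2 -0.53 to 0.74, EPSTI1 -0.59 to 0.15 and NMI -0.17 to 0.0418, and in entinostat IFIT1 -0.45 to 1.06, IFIT2 -0.0943 to 0.81, GBP3 -0.34 to 0.16, UBE2L6 -0.11 to 0.16, EIF2AK2 -0.0596 to 0.13 and SP110 -0.21 to 0.14.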
